A study of Mus musculus with 2 samples.

Results

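A set of 7 long noncoding RNAs, out of 32285 genes counted, was followed through both single-cell RNA libraries of this mouse lung series. *Malat1* and *Neat1* are RNAs of nuclear bodies, *Meg3* is an imprinted RNA, *Gm42418*, *AY036118* and *Gm26917* lie at or beside a ribosomal RNA gene on chromosome 17, and *Snhg9* is a host gene of a small nucleolar RNA. They were taken by gene symbol, chosen by their counts across the cells of these 2 libraries as earlier results had shown them, with no threshold. Their levels and the ratios between cell types, depths and libraries are therefore descriptions and carry no test. Each RNA was described by cell type, by the number of unique molecular identifiers (UMIs, which count captured molecules) in the cell, and by library.

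The libraries compared mice in which *Cebpa*, a transcription factor gene, was deleted in alveolar type 2 (AT2) cells with floxed controls. Deletion was made in Sftpc-CreER+ *Cebpa* fl/fl mice, in which the promoter of *Sftpc*, a surfactant protein gene, drives a tamoxifen-dependent recombinase in AT2 cells. Those mice are called *Cebpa* ΔSftpc and their library KO. The controls were *Cebpa* fl/fl mice and their library FF. Per the methods, *Cebpa* deletion was induced by tamoxifen, 5 daily injections of 75 mg/kg, with a second round of weekly injections for experiments of such length, in mice 3 months old unless otherwise stated and of mixed background. Lungs of 3 mice per genotype were taken 26 weeks after the first injection. Each genotype was 1 library, and its barcodes do not mark the mouse, so no difference between the genotypes has a replicate check. The labels speak of sorted live cells and the methods of whole-lung suspensions, and the 2 descriptions leave unclear which cells went into the libraries.

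The FF library held 11721 barcodes and 69200420 UMIs, and the KO library 13373 barcodes and 64697396 UMIs. Cells were kept if at least 200 genes were found in them and mitochondrial genes took no more than 20% of their counts, which left 11487 and 13238 cells with medians of 4835 and 2607 UMIs per cell. Cells under 3000 UMIs made up 28.5% of the FF and 53.1% of the KO library. A cell was gated to a type when it had at least 3 UMIs of that type's marker genes, from at least 2 markers, and at least 2 times the UMIs of the next type, which placed 92.0% of FF and 81.0% of KO cells. Summed endothelial markers stood at 9285 UMIs per 1000000 UMIs of these cells (CPM) in FF and 9377 in KO endothelial cells. Summed fibroblast markers stood at 14536 and 14567 CPM in fibroblasts. As the same markers set the gates, these levels are no check of the gates. At least 50 cells were found in each library for 7 types, namely AT2, ciliated, endothelial, lymphatic endothelial, smooth muscle cells, fibroblasts and platelets. *Cebpa* itself stood at 156 CPM (1425 UMIs) in 453 FF and 123 CPM (189 UMIs) in 204 KO cells of the AT2 gate, so transcripts of the targeted gene remained in the gated KO cells. The gate used AT2 marker genes, and the study reports that AT2 markers were lost after deletion. Deleted cells that had lost these markers may thus lie outside the gate, which was not tested. At an earlier time the study found Cebpa diminished in lungs of *Cebpa* ΔSftpc mice by immunostaining, quantitative PCR and Western blot. RNA of other cells was also counted in these gates: in endothelial cells *Sftpc* of AT2 cells stood at 893 CPM in FF and 385 in KO, *S100a8* of neutrophils at 2.08 and 240, and *Hbb-bs* of red cells at 49.5 and 623. In platelets *Sftpc* stood at 2477 CPM in FF and 1005 in KO, *S100a8* at 4.80 and 161, and *Hbb-bs* at 146 and 590. The part of such RNA in the results, those of platelets included, was not tested. The libraries shared 45 barcodes.

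*Malat1* and *Neat1* are neighbouring nuclear RNAs: *Malat1* concentrates in nuclear speckles, bodies rich in splicing factors, and *Neat1* is the scaffold of paraspeckles. *Meg3* is expressed from the maternal chromosome of the imprinted Dlk1-Dio3 region. Ribosomal RNA is the bulk of cellular RNA but lacks a poly(A) tail, and oligo(dT) primers, which capture polyadenylated RNA in 3′ libraries, can also prime at internal stretches of A. In single-cell work the share of *Malat1* is often read as a sign of nuclear RNA, and counts at ribosomal RNA loci as a sign of ribosomal RNA in the library.

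In the GENCODE M21 annotation of GRCm38 all 7 were matched. *Malat1* (chr19:5795690-5802672, minus strand) and *Neat1* (chr19:5824708-5845478, minus strand) lie 22035 bases apart. *Meg3* (chr12:109541001-109571726, plus strand) has 11 annotated transcripts. *Gm42418* (chr17:39846958-39848788, plus strand) is a single exon of 1831 bases that lies wholly inside a ribosomal RNA gene, CT010467.1, annotated on the other strand. That gene has no row of its own in the count tables. Its strand is that of the annotation, and which of the 2 strands matches ribosomal RNA itself was not checked here. *AY036118* (chr17:39847113-39848035, minus strand) is a single exon of 923 bases that lies wholly inside *Gm42418*, on the opposite strand, and covers 50.4% of it. *Gm26917* (chr17:39843013-39846341, plus strand) does not overlap the ribosomal RNA gene in this annotation: it ends 11 bases from it and 616 bases from *Gm42418*. *Snhg9* (chr17:24719531-24719965, minus strand) has 2 exons, holds *Snora78* in its span and lies within the span of *Rps2* on the other strand. The strand setting of the counting is not given in the sources used here, so reads of *Gm42418* and *AY036118*, and of *Snhg9* and *Rps2*, may not be fully told apart.

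The same 40 bases at the end of their overlap (chr17:39847113-39847152, GRCm38) are shown as each gene's transcript has them, because the *AY036118* sequence is the exact reverse complement of *Gm42418* over all 923 shared bases.
Gm42418, plus strand: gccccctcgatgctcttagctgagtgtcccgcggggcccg
AY036118, minus strand: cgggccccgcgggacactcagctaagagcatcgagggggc

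For 6 of the 7 RNAs the stretch of the transcript richest in A is shown next, since internal A runs are where oligo(dT) can prime. Capitals mark the 20 bases with the most A. Sequences are GENCODE M21 transcripts read 5′ to 3′, with T for U.
Malat1-201, chr19:5795960-5796019, minus strand: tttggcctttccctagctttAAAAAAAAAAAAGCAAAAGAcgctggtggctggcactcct
Neat1-201, chr19:5834078-5834137, minus strand: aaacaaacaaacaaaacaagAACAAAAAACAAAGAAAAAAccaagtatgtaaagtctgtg
Gm26917-202, chr17:39845136-39845195, plus strand: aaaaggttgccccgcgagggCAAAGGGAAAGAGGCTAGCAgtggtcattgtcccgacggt
Gm42418-201, chr17:39847147-39847206, plus strand: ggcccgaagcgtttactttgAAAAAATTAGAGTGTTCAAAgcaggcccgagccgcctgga
AY036118-201, chr17:39847221-39847280, minus strand: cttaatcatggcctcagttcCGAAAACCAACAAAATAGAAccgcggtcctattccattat
Snhg9-201, positions 143 to 183 of the transcript: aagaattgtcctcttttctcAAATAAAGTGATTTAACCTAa
The capitals hold 17 A in *Malat1*, with an unbroken run of 12, and they end 290 bases before the end of the transcript. They hold 17 A in *Neat1*. The members at the ribosomal RNA locus have fewer, 11 in *Gm42418* with a longest run of 6, 13 in *AY036118* and 9 in *Gm26917*. These are counts of letters in the annotated transcripts, and where the captured fragments began was not measured.

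*Malat1* was found in nearly every cell but its level differed widely between cell types, with platelets lowest in both libraries among types with at least 50 cells, and pericytes highest in FF and fibroblasts in KO. In FF it was 99645 CPM (95% interval 98983 to 100311, 195 cells) in pericytes, 80837 in AT1 cells, the flat cells of the alveolar wall, 56030 in fibroblasts and 51845 in endothelial cells. It was 40330 CPM in AT2 cells, 28547 in ciliated cells and 5438 (5257 to 5624) in platelets, a span of 18.3-fold from platelets to pericytes. Platelets have no nucleus. In their FF gate *Malat1* was 3867 CPM in 436 cells under 3000 UMIs and 11609 in 25 others. These intervals are exact Poisson limits and cover counting error only, which is small at such counts and says nothing of the spread between mice. In KO the level was 42079 CPM in fibroblasts, 36903 in endothelial cells, 31293 in AT2 cells and 22482 in ciliated cells, and the 34 pericytes had 82949. Leukocytes, with at least 50 cells in KO only, stood below AT2 cells: B cells had 30600 CPM, neutrophils 23590, C1q macrophages 23484, T cells 23132, alveolar macrophages 12957 and monocytes 11097. Neutrophils and C1q macrophages overlapped in their intervals, as did C1q macrophages and T cells, and KO platelets were the lowest of these types at 7850 CPM. Within fibroblasts, alveolar exceeded adventitial cells, 71737 against 50060 CPM in FF and 45733 against 40941 in KO. Among cells under 3000 UMIs the order was the opposite in both libraries, 13440 against 18210 CPM in FF and 28945 against 40008 in KO.

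*Neat1* followed another order. In FF, AT1 cells had 1518 CPM (1409 to 1632), alveolar fibroblasts 842, lymphatic endothelial cells 610 and fibroblasts as a whole 499. AT2 cells had 365 CPM, ciliated cells 276, endothelial cells 264 and pericytes, the highest type for *Malat1*, 145 (121 to 172). These levels are over cells of all depths, and AT1 cells were not the highest among FF cells under 3000 UMIs. At that depth 62 AT1 cells had 257 CPM, on 20 UMIs. Lymphatic endothelial cells had 674 CPM there (35 cells) and AT2 cells 672 (19 cells). Among KO types with at least 50 cells, neutrophils were highest at 1199 CPM (1155 to 1245), followed by monocytes at 782, and T cells lowest at 177. The intervals of FF ciliated and endothelial cells overlapped.

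**Figure D1:**
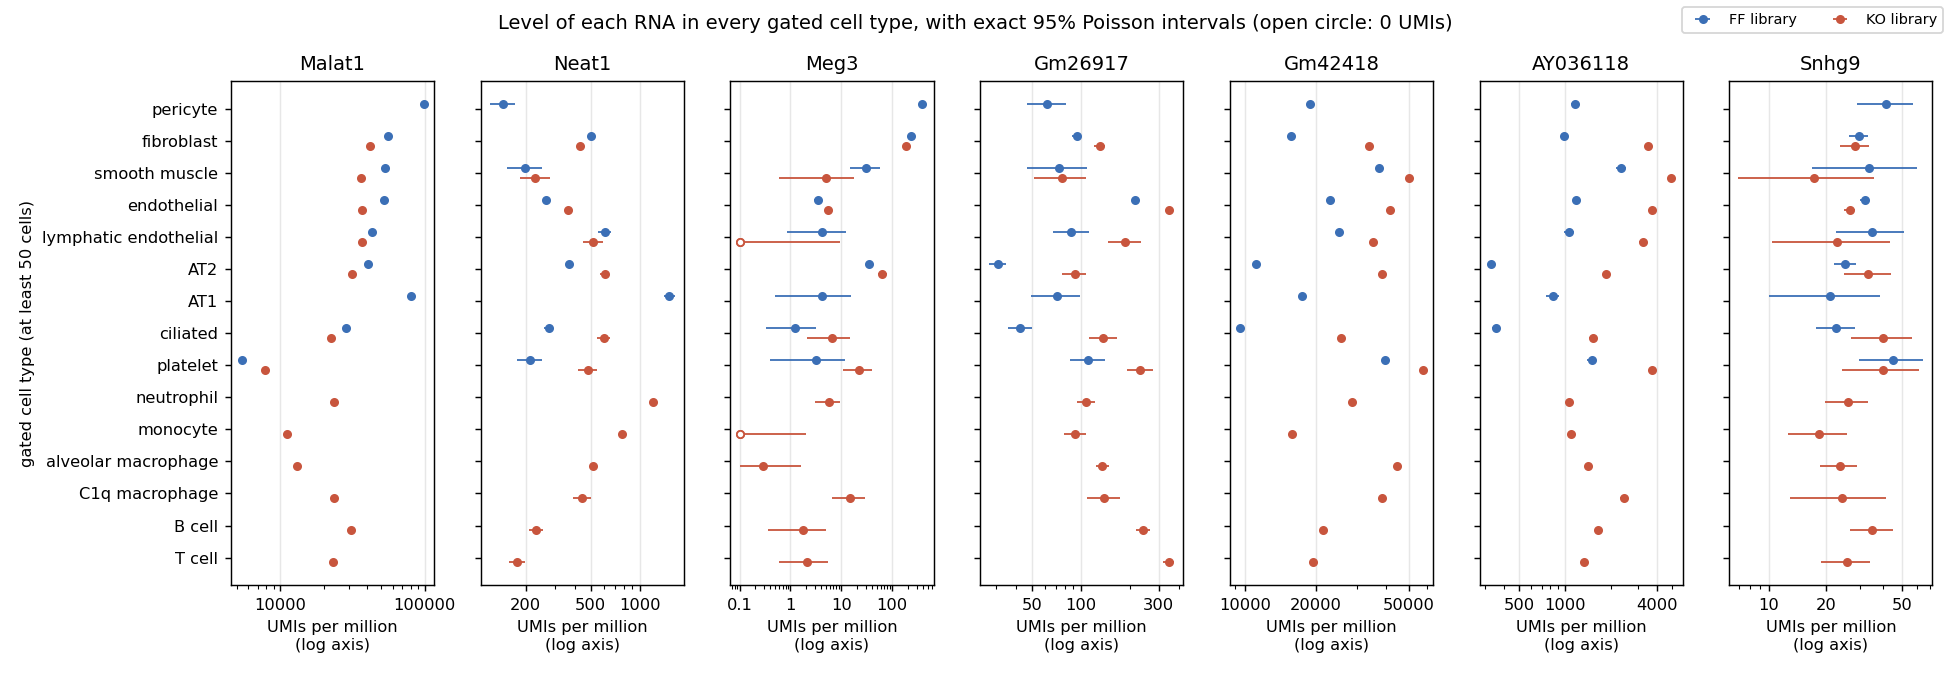
Level of each RNA in CPM (log axis) by gated cell type, with 1 point per library, FF and KO; bars are exact Poisson 95% intervals, which cover counting error only. *Malat1* spans from 5438 CPM in FF platelets to 99645 in FF pericytes, and *Meg3* is far higher in fibroblasts, at 238 CPM in FF, than in endothelial cells, at 3.49.

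*Meg3* was highest in pericytes and fibroblasts, but not in every mesenchymal type. In FF it was 384 CPM (344 to 427) in pericytes, where 60% of cells had a UMI, and 238 (229 to 248) in fibroblasts, against 3.49 (2.94 to 4.13) in endothelial cells. The fibroblast level over the endothelial one was 6.09 in log2 in FF and 5.12 in KO, in a comparison where 18.2% of 13266 genes in FF and 14.5% of 13349 in KO were at least 2-fold higher in fibroblasts and 15.5% and 13.5% at least 2-fold lower. Adventitial fibroblasts, which surround vessels and airways, carried it at 303 CPM in FF and 235 in KO. Alveolar fibroblasts had 36.2 and 11.6 CPM and smooth muscle 30.5 and 4.92, next to 35.5 and 63.7 in AT2 cells. No UMI was found in 177 KO monocytes, which allows up to 2.04 CPM by the exact interval.

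Of the neighbours of *Meg3* in the Dlk1-Dio3 region, the noncoding ones were highest in fibroblasts and pericytes among endothelial cells, fibroblasts, AT2 cells, platelets and pericytes. *Rian*, a noncoding RNA downstream of *Meg3* in the region, had 33.0 CPM in FF and 27.1 in KO fibroblasts and 43.7 and 25.6 in pericytes, against 0.658 and 0.839 in endothelial cells. *Mirg*, a microRNA host of the same region, had 4.56 and 3.41 CPM in fibroblasts, and 6.89 and 6.39 in pericytes on only 6 and 1 UMIs. The protein-coding *Dlk1* and *Rtl1* had at most 5 UMIs in each of endothelial cells, fibroblasts, AT2 cells, platelets and pericytes of either library, too few for an order of types. AT2 cells gave *Meg3* in few cells: 52 of 453 FF cells had a UMI, and the 5 richest cells held 141 of the 325 UMIs. In KO 21 of 204 had one, and 65 of 98 UMIs were in 5 cells.

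*Gm42418* was counted in almost all cells of every type. Among types with at least 50 cells, platelets had the highest FF level at 39621 CPM (39129 to 40118), next to smooth muscle at 37270, with lymphatic endothelial cells at 25101, endothelial cells at 22988, fibroblasts at 15748, AT2 cells at 11135 and ciliated cells at 9504. The KO order began in the same way, with platelets at 57371 CPM and smooth muscle at 50101, and alveolar macrophages followed at 44432. Monocytes were the lowest of these KO types at 15769 CPM. *Malat1* and *Gm42418* were therefore placed apart in platelets, lowest for the first and highest for the second among the types with at least 50 cells in each library.

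*AY036118*, read from the other strand of the same bases, was highest in smooth muscle among types with at least 50 cells, at 2314 CPM (2152 to 2485) in FF and 4883 (4671 to 5103) in KO. AT2 cells were lowest in FF at 328 CPM and neutrophils in KO at 1065, where monocytes at 1085 overlapped them. For each 100 UMIs of *Gm42418*, *AY036118* had 4.95 in all FF and 7.99 in all KO cells. The ratio was higher in KO in each of the 7 shared types, from 2.94 against 4.76 in AT2 cells to 6.24 against 10.3 in fibroblasts. KO alveolar macrophages stood at 3.18. The overlapping genes did not keep 1 ratio across cell types or libraries.

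*Gm26917* had a pattern of its own. Among the larger FF types it was highest in endothelial cells, at 215 CPM (211 to 220), and lowest in AT2 cells, at 31.0 (27.5 to 34.8). Within the endothelium, general capillary cells, the progenitor-like cells of the alveolar capillaries, had 250 CPM in FF and 433 in KO. Aerocytes, the capillary cells that line the gas exchange surface, had 121 and 188. T cells were also rich in it, with 412 CPM in 27 FF cells and 345 in 242 KO cells. For each 100 UMIs of *Gm42418*, T cells had 5.04 UMIs of *Gm26917* in FF and 1.78 in KO, against 0.788 and 0.719 over all cells.

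*Snhg9* was sparse and differed little between types. It was found in 16.1% of FF and 11.5% of KO cells, with 1 UMI in 87.0% and 87.9% of the positive cells. Among types with at least 50 cells its FF level ran from 20.9 CPM (10.0 to 38.5) in AT1 cells to 44.8 (29.8 to 64.7) in platelets, a range in which the intervals of those extremes overlap. In KO it ran from 17.2 CPM in smooth muscle to 39.9 in platelets. After each endothelial cell was thinned to 1000 UMIs, 3.40% of FF and 3.01% of KO cells had a UMI, against 14.9% and 11.2% unthinned.

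Between the libraries, the RNAs at the ribosomal RNA locus were higher and *Malat1* was lower in KO in most types. With 1 library per genotype each ratio is a comparison of the libraries, given as log2 of KO over FF with an exact 95% interval for counting error. *AY036118* was at least 2-fold higher in all 7 shared types. It was 328 CPM in FF and 1839 in KO AT2 cells (2.49, interval 2.41 to 2.56), 1168 and 3707 in endothelial cells (1.67, 1.65 to 1.68), 982 and 3453 in fibroblasts (1.81, 1.78 to 1.85) and 2314 and 4883 in smooth muscle (1.08, 0.96 to 1.20). The share of all tested genes at least 2-fold higher was 4.02% in AT2 cells, 1.16% in ciliated cells, 7.89% in endothelial cells, 1.62% in lymphatic endothelial cells, 3.76% in fibroblasts, 1.46% in smooth muscle and 4% in platelets. Ordered from the highest ratio, it was number 659 of 13816 genes in endothelial cells and number 68 of 9816 in AT2 cells. After endothelial cells were thinned to 1000 UMIs, leaving out 259 FF and 702 KO cells below that, 47.3% of FF and 85.9% of KO cells had a UMI of *AY036118*.

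*Gm42418* was higher in KO in 7 of 7 types beyond the counting interval and at least 2-fold higher in 3, AT2, ciliated cells and fibroblasts. The log2 ratio was 1.79 (1.78 to 1.81) in AT2 cells, 1.44 in ciliated cells, 1.10 in fibroblasts, 0.85 in endothelial cells, 0.53 in platelets, 0.48 in lymphatic endothelial cells and 0.43 in smooth muscle. *Gm26917* was higher beyond its interval in 6 of 7 types and at least 2-fold higher in 4. It was 31.0 and 91.7 CPM in AT2 cells (1.56, 1.26 to 1.86) and 42.6 and 137 in ciliated cells (1.69, 1.31 to 2.06). In smooth muscle, with 24 and 31 UMIs, 73.3 and 76.3 CPM were within counting error. Its ratio rested on shallow cells in part of these types: among cells of at least 3000 UMIs it was 0.10 in fibroblasts (-0.08 to 0.27), and in platelets it was -1.27 (-1.95 to -0.62), with 410 CPM in 25 FF and 170 in 38 KO cells. *Gm42418* was lower in KO smooth muscle under 3000 UMIs (-0.43, 22 FF and 19 KO cells). *AY036118* was under 2-fold higher in platelets of at least 3000 UMIs (0.74) and its interval held 0 in smooth muscle under 3000 (-0.37, -0.76 to 0.02). The AT2 ratio compared cells of unlike depth, with medians of 21017 UMIs in FF and 2000 in KO; among AT2 cells of at least 3000 UMIs, 434 in FF and 83 in KO, the summed ratio of the 3 RNAs was 1.82. Over cells of all depths the 3 RNAs summed had a median ratio of 0.90 over the types, while the median of all tested genes was 0.02 in endothelial cells, 0.01 in fibroblasts and 0.12 in AT2 cells.

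**Figure D2:**
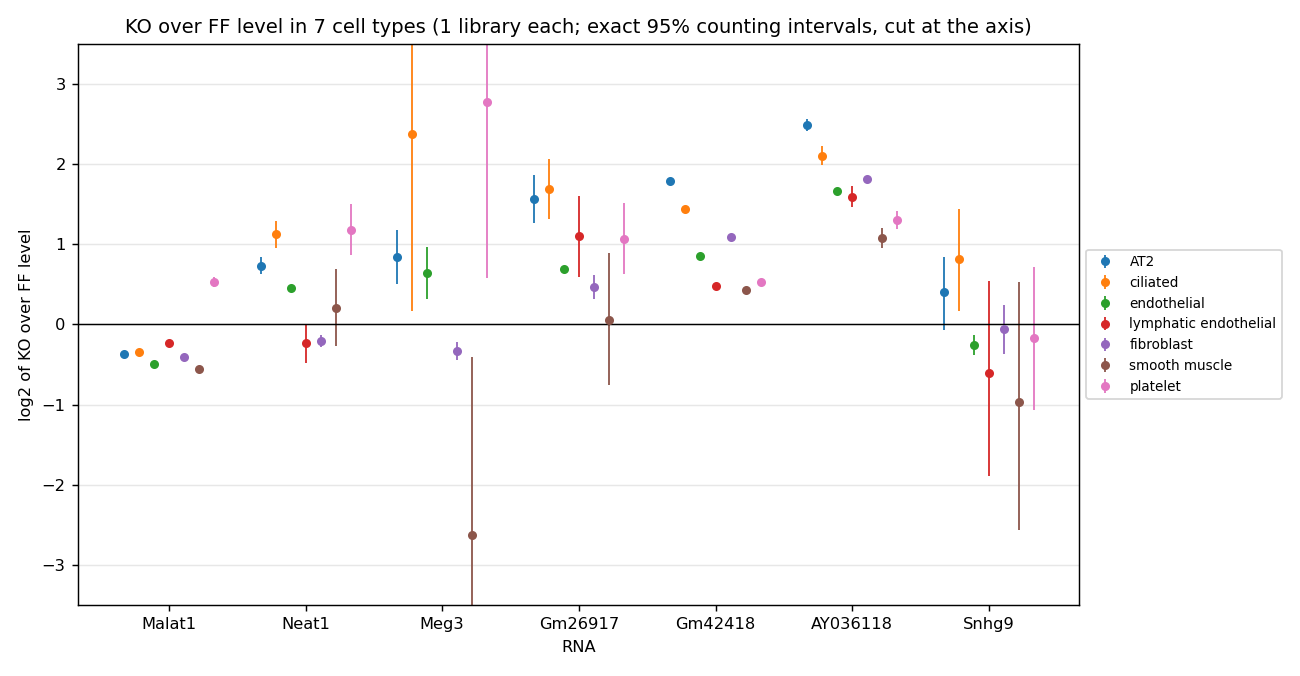
Log2 of the KO over the FF level for each RNA in the 7 cell types with at least 50 cells in each library; points are ratios of summed counts and bars are exact 95% intervals for counting error, cut at the axis. *AY036118* and *Gm42418* lie above 0 in every type, and *Malat1* lies below 0 in every type but platelets.

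*Malat1* was lower in KO in 6 of 7 types, by less than 2-fold in each. It was 53226 CPM in FF and 36030 in KO smooth muscle (-0.56, -0.60 to -0.53), 51845 and 36903 in endothelial cells (-0.490, -0.494 to -0.487), 56030 and 42079 in fibroblasts (-0.41, -0.42 to -0.41) and 40330 and 31293 in AT2 cells (-0.37, -0.38 to -0.35). Genes at least 2-fold lower made up 0.876% of those tested in endothelial cells, 0.954% in fibroblasts, 0.988% in AT2 cells, 1.48% in ciliated cells, 2.27% in lymphatic endothelial cells, 1.07% in smooth muscle and 1.56% in platelets. Platelets had more in KO, 5438 against 7850 CPM (0.53, 0.46 to 0.60). Among platelets of at least 3000 UMIs, 25 in FF and 38 in KO, the ratio was -0.36. Other nuclear long noncoding RNAs went both ways: of 11, 10 could be measured in endothelial cells, with a median of -0.09, and 1 was at least 2-fold higher, *Pvt1* at 2.13 on 11 and 42 UMIs. *Kcnq1ot1* (-0.30), *Peg13* (-0.22), *Mir99ahg* (-0.43) and *Jpx* (-0.29) were lower beyond their intervals there, and *Xist* (0.27) and *Oip5os1* (0.11) higher. Per the methods the study used mice of both sexes, and the part of sex in the *Xist* ratio was not tested. In fibroblasts *Kcnq1ot1* (-0.29), *Peg13* (-0.42) and *Mir99ahg* (-0.47) were lower beyond their intervals. *Pvt1* (0.75, on 37 and 31 UMIs), *Oip5os1* (0.16) and *Xist* (0.07) were higher there. The median of the list was -0.10 in fibroblasts and 0.09 in AT2 cells. The 9 genes for splicing factors of nuclear speckles had medians of -0.02 and -0.06 in endothelial cells and fibroblasts, with none at 2-fold.

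*Neat1* was higher in KO beyond its interval in 4 types and lower in 1. It stood at 276 CPM in FF and 601 in KO ciliated cells (1.12, 0.96 to 1.29), at 211 and 478 in platelets (1.18, 0.87 to 1.50), at 365 and 608 in AT2 cells (0.74, 0.63 to 0.84) and at 264 and 361 in endothelial cells (0.45, 0.41 to 0.49). Of the 935 *Neat1* UMIs of KO AT2 cells, 5 cells held 220, against 173 of 3348 in FF. Among AT2 cells of at least 3000 UMIs the ratio was 0.75. Under 3000 UMIs its interval held 0 (-0.27, -0.95 to 0.47, 19 FF and 121 KO cells). Fibroblasts had less in KO, 499 against 431 CPM (-0.21, -0.29 to -0.14), but only in their deeper cells: the ratio was -0.37 at 3000 UMIs and more, while under 3000 UMIs KO was higher, 577 against 262 CPM (1.14, 0.82 to 1.47). By subtype and over all depths, *Neat1* was 842 CPM in FF and 566 in KO alveolar fibroblasts (-0.57, -0.73 to -0.42). Adventitial fibroblasts had 409 and 402 CPM, with an interval that held 0 (-0.024, -0.115 to 0.068), though those of at least 3000 UMIs were lower in KO (-0.246). The part of subtype makeup in the fibroblast ratio was not tested. The intervals of lymphatic endothelial cells and smooth muscle held 0 over all cells. The 7 genes for paraspeckle proteins were all measured and none reached 2-fold, with a median of 0.36 in AT2 cells, 0.10 in endothelial cells and 0.09 in fibroblasts. *Rbm14* was the highest of them in these 3 types. Genes induced by tissue dissociation, such as *Fos* and *Junb*, had medians of 0.67 in AT2 cells, 0.58 in endothelial cells and -0.26 in fibroblasts. Their medians were 0.78 in ciliated cells, 0.825 in platelets, 0.88 in lymphatic endothelial cells and -0.10 in smooth muscle. The *Neat1* ratio was -0.23 in lymphatic endothelial cells and 0.21 in smooth muscle, with intervals that held 0. The part of these genes in the *Neat1* ratio was not tested.

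*Meg3* was lower in KO in fibroblasts when all their cells were summed, and its direction there depended on depth. In fibroblasts it was 238 CPM in FF and 189 in KO (-0.33, -0.45 to -0.22), and *Rian* and *Mirg* had ratios of -0.28 and -0.42 there, with intervals that held 0. Under 3000 UMIs fibroblast *Meg3* was higher in KO, 181 against 75.2 CPM (1.27, 0.68 to 1.91). Its interval held 0 from 3000 to 5000 UMIs (0.43) and from 5000 to 10000 (0.05), and it was lower in KO above 10000 UMIs (-0.78). Under 3000 UMIs, adventitial cells were 82 of 202 fibroblasts in FF and 475 of 659 in KO. Within adventitial cells *Meg3* was 113 CPM in FF and 234 in KO under 3000 UMIs (1.05, 0.31 to 1.89), and 307 and 235 in the others (-0.38). The part of subtype makeup in the fibroblast ratios was not tested. In AT2 cells it was 35.5 and 63.7 CPM (0.85, 0.50 to 1.18), resting on the few rich cells described above, and in endothelial cells 3.49 and 5.44 (0.64, 0.32 to 0.97), with an interval that held 0 in those of at least 3000 UMIs (0.32, -0.06 to 0.70). Smooth muscle had 10 UMIs in FF and 2 in KO, platelets 2 and 11, and ciliated cells 4 and 5, counts too low to describe a change. *Snhg9* was lower in KO endothelial cells, 31.9 against 26.7 CPM (-0.26, -0.38 to -0.14), and higher in ciliated cells, 22.6 against 39.8 (0.82, 0.16 to 1.44). Its interval held 0 in the other 5 types. Of 16 other hosts of small nucleolar RNAs, 15 were measured in endothelial cells with a median of 0.13 and none at 2-fold, and in fibroblasts with a median of -0.14 and *Snhg15* at 1.24.

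**Figure D3:**
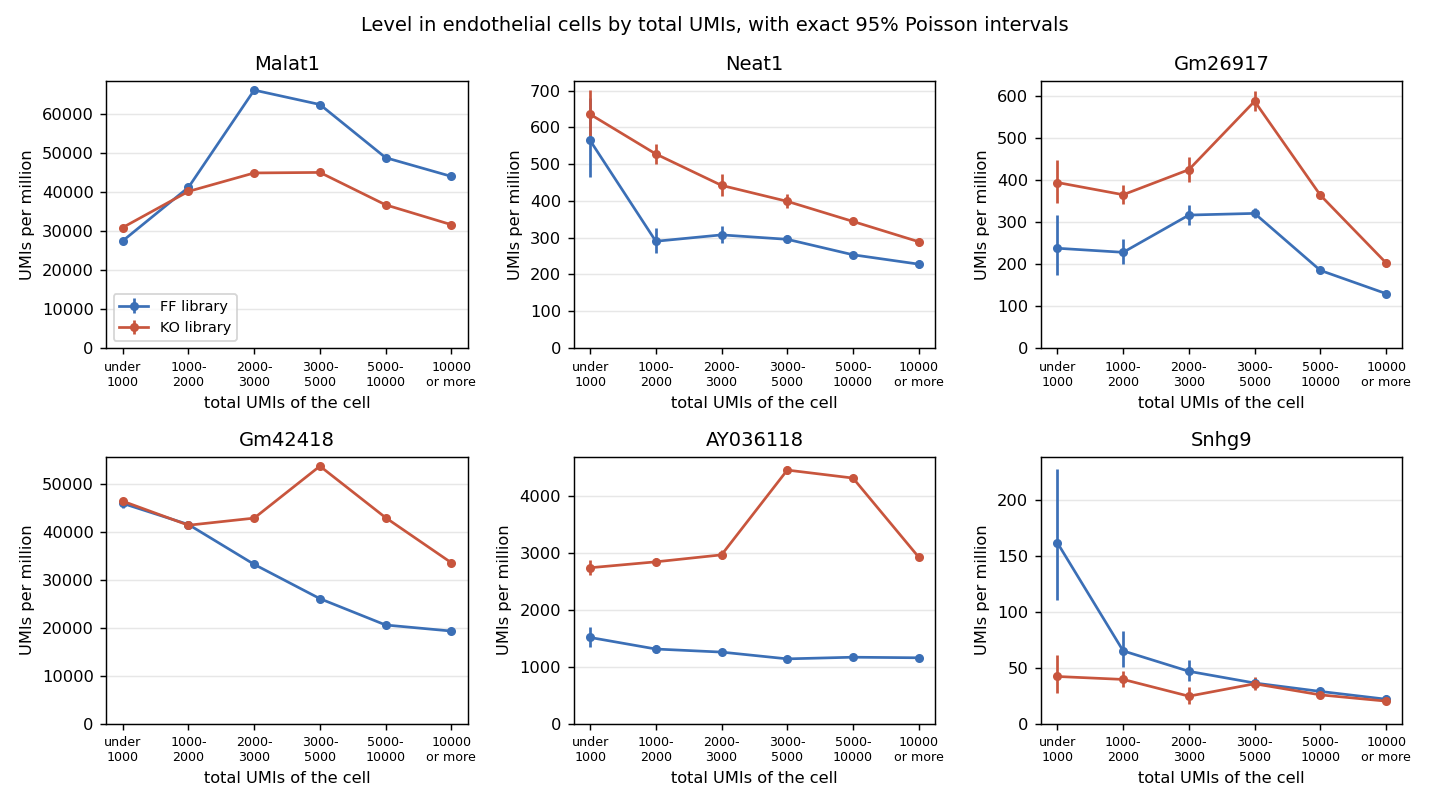
Level of 6 of the RNAs in endothelial cells, in UMIs per 1000000 (CPM), by total UMIs of the cell; lines join the points of the FF and the KO library and bars are exact Poisson 95% intervals. *Gm42418* is 45906 CPM in FF and 46375 in KO under 1000 UMIs and separates from 2000 UMIs on, while *AY036118* is higher in KO in every group.

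The KO library was the shallower, so the ratios were also taken among cells of like depth. In endothelial cells under 1000 UMIs (259 FF and 702 KO cells) *Gm42418* was 45906 and 46375 CPM, a log2 ratio of 0.02 (-0.02 to 0.05). Between 1000 and 2000 UMIs it was 41503 and 41359 CPM. From 3000 to 5000 UMIs it was 26047 and 53680 (1.04), from 5000 to 10000 the ratio was 1.06 and above that 0.80. Among endothelial cells the difference in *Gm42418* was therefore found at 2000 UMIs and more. *AY036118* was higher in KO in each of these groups, by 0.86 under 1000 UMIs and 1.97 at 3000 to 5000. *Gm26917* was too, by 0.42 to 0.98. In fibroblasts *Gm42418* was already higher in KO under 1000 UMIs (0.18) and from 1000 to 2000 (0.44). There it was slightly lower from 2000 to 3000 UMIs (-0.07) and higher in the groups from 3000 on (1.11, 1.16 and 1.09).

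*Malat1* behaved differently along the same axis. Under 1000 UMIs it was 27472 CPM in FF and 30902 in KO endothelial cells (0.17), between 1000 and 2000 it was 41209 and 40168 (-0.04), and from 2000 to 3000 it was 66167 and 44907 (-0.56). Above 3000 UMIs the ratios were -0.47, -0.41 and -0.48. The lower *Malat1* of KO endothelial cells was thus not seen in the shallowest cells. In fibroblasts under 3000 UMIs it was higher in KO, 38006 against 21362 CPM, and at or above 3000 it was lower, 43136 against 57403. *Snhg9* differed at the shallow end, with 161 CPM in FF and 42.1 in KO cells under 1000 UMIs (-1.94, -2.74 to -1.15), and had intervals that held 0 in each group from 3000 UMIs on, though with those groups summed it was lower in KO (-0.22, -0.36 to -0.08).

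Within a library, cells under 3000 UMIs were set against those at or above it. FF fibroblasts showed a wide contrast: *Malat1* was 21362 CPM in 202 shallow cells and 57403 in 1087 others (-1.43), *Meg3* 75.2 and 245 (-1.70), and *Neat1* 262 and 508 (-0.96). *Gm42418* was higher in the shallow ones, 34725 against 14996 CPM (1.21), as was *AY036118*, 1933 against 945 (1.03). In that comparison 1.44% of 10831 genes were at least 2-fold higher and 10.7% at least 2-fold lower in the shallow cells. *Meg3* was number 137 from the lowest ratio and *Gm42418* number 77 from the highest. Adventitial fibroblasts alone had *Meg3* at 113 CPM in 82 shallow FF cells and at 307 in 760 others. FF AT1 cells went further, with *Malat1* at 9252 CPM in 62 shallow cells and 94793 in 39 others (-3.36). In KO fibroblasts the same contrast was small for *Malat1* (-0.18), *Meg3* (-0.08) and *Gm42418* (0.37), against 6.55% of genes higher and 3.34% lower by 2-fold.

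At the same limit, *Malat1* and *Gm42418* differed less by depth in FF endothelial cells than in FF fibroblasts. *Malat1* was 56447 CPM in shallow FF endothelial cells and 51411 in the others (0.14), and 40724 and 36200 in KO (0.17). *Gm42418* was 36421 and 21723 CPM in FF (0.75), and 42444 and 41309 in KO (0.04). The FF ratio of *Malat1* depended on the limit, as its level rose and then fell with depth. In FF endothelial cells *Malat1* was 27472 CPM under 1000 UMIs, 41209 from 1000 to 2000 and 66167 from 2000 up to the limit. Above 10000 UMIs it was 44022 CPM. *Snhg9* reached 2-fold in FF, 58.8 against 29.4 CPM (1.002, 0.777 to 1.222), where 1.85% of genes were at least 2-fold higher and 2.32% lower. In KO none of *Malat1*, *Neat1*, *Gm26917*, *Gm42418*, *AY036118* and *Snhg9* reached it, *Meg3* did on 69 and 119 UMIs (1.66), and the genome-wide shares were 10.9% and 0.486%. The RNAs at the ribosomal RNA locus also differed with the mitochondrial share. In FF endothelial cells *Gm42418* was 17636 CPM at 1 to 2.5% mitochondrial counts and 46291 at 10 to 20%, and *Gm26917* 167 and 453, while *Malat1* lay between 50876 and 58761. In KO *Gm42418* was 37577 and 49154 CPM in those groups.

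**Figure D4:**
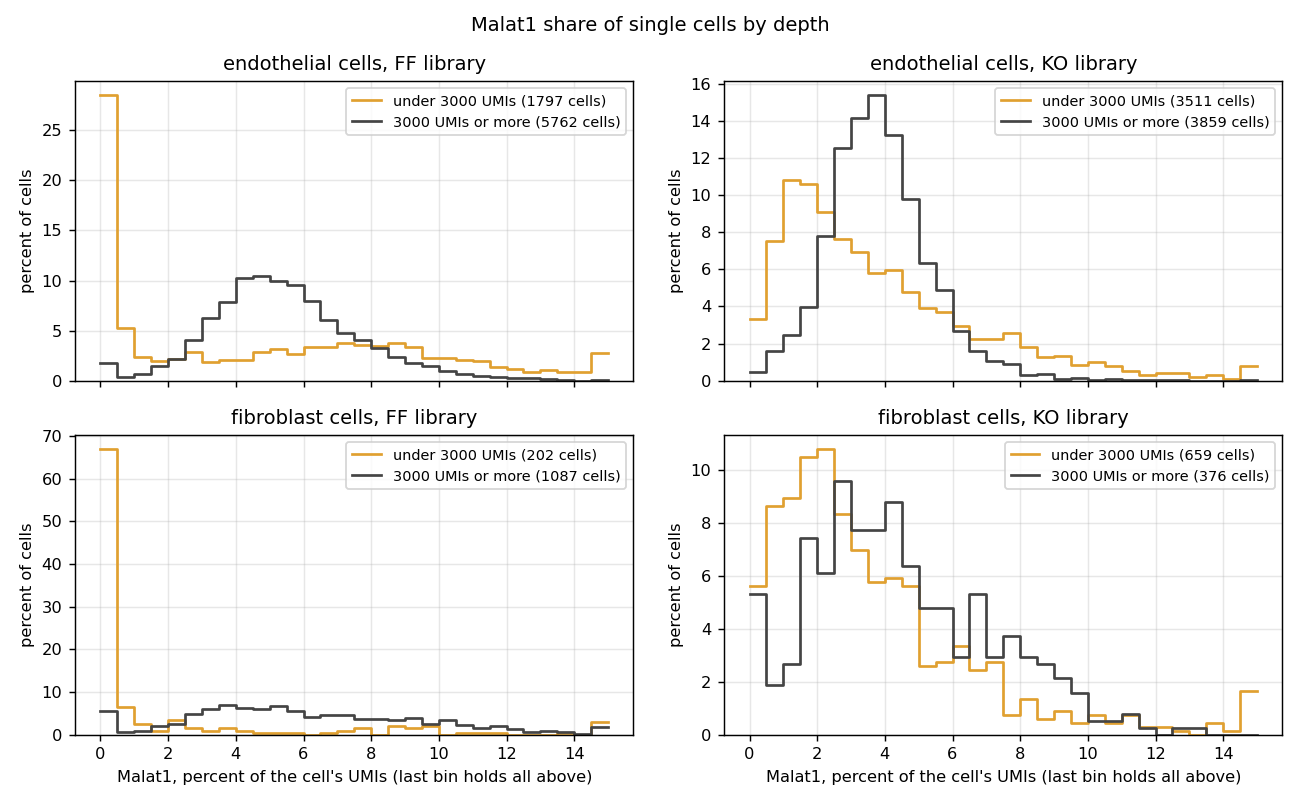
Percent of cells by the share of *Malat1* in the cell's UMIs, for endothelial cells and fibroblasts of FF and KO, with 1 line for cells under 3000 UMIs and 1 for the others; the last step holds all higher shares. Shallow FF cells of both types hold a separate group near 0, 33.7% of endothelial cells and 73.3% of fibroblasts lying under 1%.

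The summed level of shallow FF cells hid a mixture of cells with little *Malat1* and cells with more. The median cell of the shallow FF fibroblasts had a *Malat1* share of 0.254%, against 5.60% in the deeper ones. In the shallow KO fibroblasts it was 2.75%, against 4.04%. A limit of 1%, chosen after seeing the data, put 148 of 202 shallow FF fibroblasts below it (73.3%, exact interval 66.6 to 79.2) and 94 of 659 in KO (14.3%, 11.7 to 17.2). Among shallow endothelial cells it put 606 of 1797 below in FF (33.7%, 31.5 to 36.0) and 381 of 3511 in KO (10.9%, 9.84 to 11.9). Of the deeper endothelial cells 2.13% and 2.07% lay below, so the libraries differed in the shallow cells. Cells of the platelet gate lay below in 92.0% of FF and 83.5% of KO cells. Platelets have no nucleus, but whether every cell of that gate was a platelet was not tested. KO monocytes did in 54.8% of cells and alveolar macrophages in 39.3%, and 76 of those 97 monocytes and 64 of those 88 macrophages had at least 3000 UMIs.

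Shallow FF endothelial cells with little *Malat1* also had little *Gm26917*, 22.5 CPM against 384 in the others (-4.09), and less *Neat1*, 175 against 371 (-1.08). Their *Gm42418* was like that of the others, 39372 against 35306 CPM (0.16), and their *AY036118* was higher, 1797 against 1094 (0.72). In these FF cells *Gm26917* thus went with *Malat1*, and its neighbours on chromosome 17 did not. The summed speckle factor genes were lower (-1.21) and the summed ribosomal protein genes higher, 155583 against 69208 CPM (1.17). Not all nuclear RNAs were that much lower. The other nuclear long noncoding RNAs summed were at -1.375, but at -0.265 (-0.429 to -0.103) without *Xist*. Summed paraspeckle protein genes were at -0.432 and summed other hosts of small nucleolar RNAs at 0.425. The interval of *Snhg9* held 0 (-0.104, -0.589 to 0.361). The mitochondrial share was 5.29% and 4.68%, and the summed endothelial markers 6052 and 9204 CPM. Across all genes tested in this split 3.41% were at least 2-fold higher and 14% at least 2-fold lower, and the median was -0.17.

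FF fibroblasts had lower counts in this split. *Gm26917* had 1 UMI in the 148 cells with little *Malat1* and 18 in the others, *Meg3* 4 and 23, and *Neat1* was 124 against 660 CPM (-2.42). *Gm42418* and *AY036118* were higher in the cells with little *Malat1*, by 0.86 and 1.37. Of the 1013 genes tested there, 13.9% were higher and 8.29% lower by 2-fold. In KO the split was shallower: *Gm26917* was lower by 0.51 in endothelial cells and 0.98 in fibroblasts. *Gm42418* (-0.27) and *AY036118* (-0.27) were lower too in KO endothelial cells with little *Malat1*, and slightly higher in such fibroblasts (0.08 and 0.31). The interval of *Neat1* held 0 in endothelial cells. At least 2-fold shifts were found in 0.924% (higher) and 4.86% (lower) of genes in KO endothelial cells, and in 1.45% and 8.87% in KO fibroblasts, where *Meg3* was 1 of those lower, at -1.11.

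**Figure D5:**
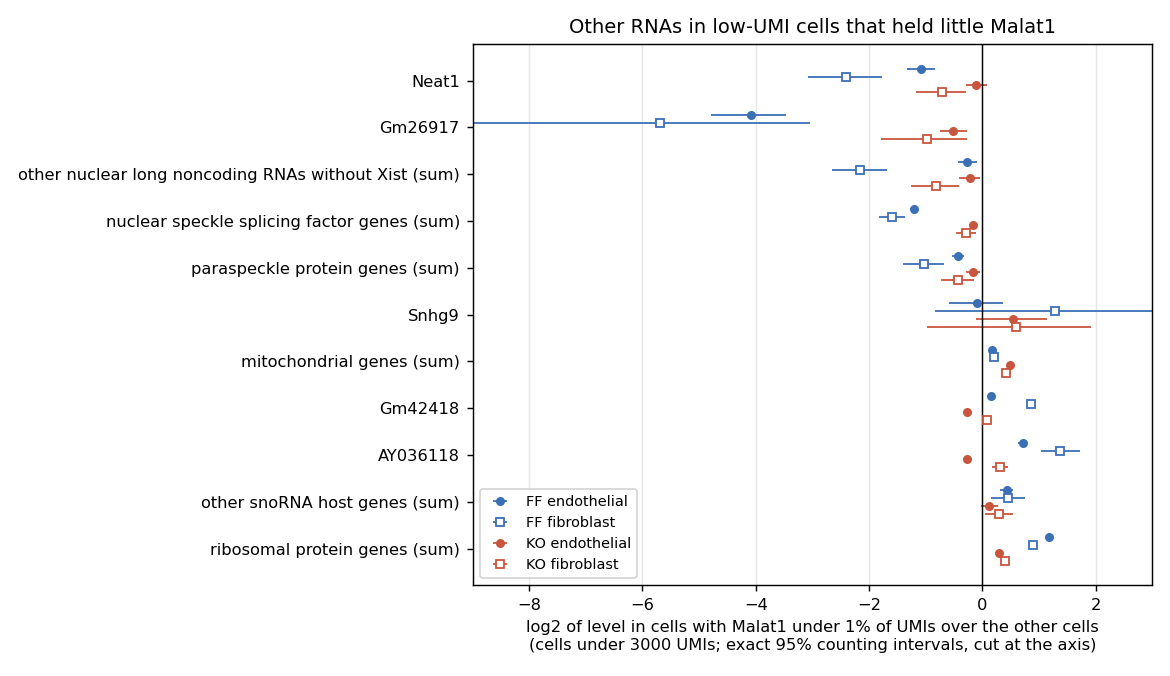
Log2 ratio of the level in cells with a *Malat1* share under 1% to that in the other cells, among endothelial cells and fibroblasts under 3000 UMIs, for 5 of the RNAs and sums of gene lists in both libraries, with exact 95% intervals cut at the axis. *Gm26917* lies far below 0 in FF, at -4.09 in endothelial cells, and *Gm42418* lies above 0 there, at 0.16.

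The patterns over cell types were last compared among 12173 genes, these RNAs included, by Pearson's r of log2(CPM + 10). It was taken over 22 profiles, each a cell type of at least 50 cells in a library. These profiles share libraries and depth, and r is given as a description. *Meg3* was most like *Scarf2* (0.95), *Rian* (0.94) and *Bmp5* (0.91). *Malat1* was most like *AW549877* (0.90), *Zfp397* (0.89) and *Rab11fip2* (0.89), and *Neat1* like *Pak1* (0.76), *Megf9* and *Yipf1*. *Gm26917* was most like *S1pr4* (0.82), a receptor gene of lymphocytes, and *Gimap4* and *Mfng* (0.81 each). *Snhg9*, with few counts, reached 0.70 with *Ankrd28*, followed by *Gm10638* and *4930481A15Rik*.

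*Gm42418* and *AY036118* had an r of 0.87 with each other, and the nearest other gene of both was *Lars2* (0.88 and 0.79), which encodes the mitochondrial leucyl-tRNA synthetase. *Pdlim7* and *Rspry1* came next for *Gm42418*, and *Trak2* and *Rspry1* for *AY036118*. *Lars2* was also higher in KO in 7 of 7 types beyond its interval, from 0.29 in lymphatic endothelial cells to 1.38 in AT2 cells, where it was 301 CPM in FF and 785 in KO. In endothelial cells it was 778 and 1277 CPM (0.71, 0.69 to 0.74). *Gm26917* had lower r with both neighbours, 0.46 with *Gm42418* and 0.58 with *AY036118*.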

How the data were processed

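Mouse lung cells were measured by droplet-based 3′ single-cell RNA-Seq in 1 library per genotype. The authors deposited unnormalized UMI counts, whole numbers for each gene in each cell barcode. Per the labels they came from Cell Ranger 6.1.1 on mm10, while the file headers name version 5.0.0. The annotation, strand setting and treatment of introns are not given in the sources used here.

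From these counts, cells were kept from 200 genes up and with mitochondrial counts of 20% or less, and were gated to 20 types and 4 subtypes by marker UMIs. No doublet caller was run, and cells without 2 times more marker UMIs of 1 type than of the next stayed ungated. A level is the summed count of a gene in a type and library per 1000000 UMIs there (CPM). Intervals are 95% exact Poisson limits for levels, exact conditional limits for ratios and Clopper-Pearson limits for shares. They cover counting error only. A count of 0 was set to 3 in a ratio, and ratios were not taken where both counts were at or under 3. With 1 library per genotype no test was possible. Ratios over all genes used those with at least 50 UMIs in the 2 groups. The interval code was tested on simulated data.

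The 7 RNAs and the lists of related genes were chosen with earlier results of these data known. Genes named are the 7 RNAs, the ends of each list, and the 3 genes most like each RNA over profiles of cell type and library, among genes with at least 500 UMIs. *Cebpa*, *Sftpc*, *S100a8*, *Hbb-bs*, *Fos* and *Junb* are named outside this rule, as the targeted gene, as markers or as examples of a list. *Kcnq1ot1*, *Peg13*, *Mir99ahg*, *Jpx*, *Xist* and *Oip5os1* were named after their values were seen. The 1% limit on the *Malat1* share was chosen after seeing the data. Alternatives changed the gate, the filters, the denominator, the cells of highest depth, the averaging, the shared barcodes and the limit of 3000 UMIs. Positions and sequences are from GENCODE M21 on GRCm38. The stretch of *Meg3* is not reported here. Python 3.11.15, numpy 2.4.6, pandas 2.3.3, scipy 1.17.1 and matplotlib 3.10.9 were used.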

Additional observations from a re-analysis of the deposited data

Results flagged for a closer look

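Several RNAs were higher in KO in some cell types and lower in others beyond their counting intervals, and none of these differences was tested. *Malat1* was higher in KO in platelets (log2 ratio 0.53) and lower in the other 6 types. *Neat1* was lower in KO beyond its interval in fibroblasts only (-0.21, over cells of all depths) and higher in 4 types. Within fibroblasts the *Neat1* ratio was -0.57 in alveolar cells and -0.02 in adventitial cells, where its interval held 0. *Snhg9* was lower beyond its interval in endothelial cells (-0.26) and higher in ciliated cells (0.82). *Meg3* was lower in KO in fibroblasts (-0.33) and in smooth muscle (-2.63, on 10 and 2 UMIs).

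The libraries also differed in how cells under 3000 UMIs compared with deeper cells of the same type, again without a test. In fibroblasts the log2 ratio of shallow to deeper cells was -0.96 in FF and 0.55 in KO for *Neat1*, -0.86 and 1.20 for *Gm26917*, and 1.03 and -0.21 for *AY036118*. In endothelial cells *AY036118* had ratios of 0.15 in FF and -0.43 in KO. FF fibroblasts under 3000 UMIs were 202 cells, of which 73.3% had a *Malat1* share under 1%, against 14.3% of 659 in KO.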

How the results depend on the processing

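Of 208 values under 10 alternatives for 24 results, 199 kept the direction of the value reported and 9 did not. Leaving out the 45 shared barcodes moved none of the main results beyond its counting interval. The median KO over FF ratio of *Malat1* (-0.37) was -0.38 without a filter on barcodes, -0.33 under the stricter filter, -0.32 with these RNAs, mitochondrial and hemoglobin counts out of the denominator, -0.38 without the 5% of cells with most UMIs, and -0.47 as a mean of single-cell shares. The sum of the 3 RNAs of the ribosomal RNA locus (0.90) was 0.91, 0.91, 0.92, 0.94 and 0.77 under a gate of 5 marker UMIs, the stricter filter, the other denominator, without the deepest 5% and as a mean of shares, and 0.98 in cells of at least 3000 UMIs. *Neat1* (0.45) was 0.52 as a mean of shares and 0.36 in cells of at least 3000 UMIs. *Meg3* in fibroblasts (-0.33) was -0.10 without the deepest 5% and -0.11 as a mean of shares, so its size depended on the deepest cells and on the averaging.

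The contrast by depth in endothelial cells depended on the limit. *Malat1* in FF (0.14) was 0.19 with the stricter gate, 0.16 with the stricter filter, 0.20 with the other denominator, 0.13 without the deepest 5%, and 0.35 with a limit of 5000 UMIs, but it turned to -0.42 with a limit of 2000 UMIs and to -0.11 as a mean of shares. In KO (0.17) it was 0.19, 0.18, 0.13, 0.015, 0.07 and 0.30 under the gate, the denominator, without the deepest 5%, as a mean of shares, and with limits of 2000 and 5000 UMIs. The sum of the 3 RNAs in FF (0.72) was 0.68, 0.78, 0.88 and 0.49 under the stricter filter, the denominator and the limits of 2000 and 5000. In KO (0.006) it was -0.001, 0.018, -0.051, -0.096, -0.004 and 0.249 under the gate, the denominator, without the deepest 5%, as a mean of shares and with those limits. KO *Gm42418* turned to -0.013 without the deepest 5% and -0.06 as a mean of shares, and KO *Gm26917* to -0.082 as a mean of shares. Apart from the limits and averages named, the cause was not tested. No paired analysis was possible because each genotype was 1 library with no replicate number.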
